A study of Mus musculus with 32 samples.

Results

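Enzymes that add hydroxyl groups to the side chain and rings of cholesterol turn it into oxysterols and into precursors of bile acids, and 6 mouse genes of this route were followed through brain development in the presence and absence of Dhcr7. The genes were Cyp46a1, Cyp27a1, Ch25h, Cyp7b1, Cyp39a1 and Hsd3b7, found by their symbols among the 55291 symbols listed in each of 4 count tables, and all 6 were present in every table. Whole brains of C57BL/6J mice were sequenced at 3 embryonic stages, named E12.5, E14.5 and E16.5 by the day of gestation, and at birth (PND0). At each stage 4 wild type libraries (WT, Dhcr7+/+) were set against 4 knockout libraries (KO, Dhcr7-/-), which gave 32 libraries in 8 groups. Dhcr7 encodes 7-dehydrocholesterol reductase, which completes cholesterol synthesis and is defective in Smith-Lemli-Opitz syndrome. The labels give no litter, animal number or sex and do not describe how the Dhcr7 allele was made, so p-values measure only the spread between these libraries.

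The blood-brain barrier keeps cholesterol from crossing, whereas hydroxylated cholesterol, called oxysterol, passes through membranes with ease. In the adult brain neurons hydroxylate the side chain with Cyp46a1, and the product is the main form in which the brain loses cholesterol. Oxysterols also bind the liver X receptors and the Insig proteins, through which cells sense sterol load, and in the liver they enter an alternative route of bile acid synthesis by way of Cyp7b1, Cyp39a1 and Hsd3b7.

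Total counts per library ran from 13868087 to 28318857. A count of 0 allows up to 3 counts, which is 0.106 to 0.228 CPM (the count scaled to a fixed library total). This floor, and the count intervals given below, cover counting error only. Dhcr7 itself was lower in KO at each stage, with log2 fold changes of -1.64, -2.40, -1.88 and -2.63 from E12.5 to PND0 (adjusted p = 0.00824, 6.91e-29, 1.37e-09 and 5.6e-06). At E12.5 the adjusted p for Dhcr7 rose to 0.0625 without KO replicate 2 and to 0.0558 without KO replicate 4, at log2 fold changes of -1.65 in both. All 7 neuronal markers (Tubb3, Map2, Rbfox3, Snap25, Syt1, Stmn2 and Dcx) were at 1 CPM or more in every group. The summed level of 6 liver markers ran from 0.350 to 50.3 CPM over all libraries. It was highest in E16.5 KO replicate 4 (50.3 CPM), E12.5 WT replicate 2 (21.7 CPM) and E16.5 KO replicate 3 (15.8 CPM). At birth it ran from 0.515 to 1.81 CPM in KO and from 1.19 to 1.79 CPM in WT. E12.5 WT replicate 2 was also the highest library for Ch25h (1.77 CPM). E16.5 KO replicate 4 held 1 count of Ch25h and 2 of Hsd3b7. The part of liver RNA in these levels was not tested.

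Promoter sequence was taken from RefSeq (GRCm38.p6), which matched 4 of the 6 genes. The 250 bases before the start site are shown for the neuronal gene Cyp46a1 and for Cyp27a1 and Ch25h, the side chain hydroxylases whose levels took the opposite course in WT brain. Each is printed 5′ to 3′ on its own strand, and capitals mark GGGCGG, the core of the GC box, or its reverse complement.
Cyp46a1 (chr12:108334066-108334315, plus strand): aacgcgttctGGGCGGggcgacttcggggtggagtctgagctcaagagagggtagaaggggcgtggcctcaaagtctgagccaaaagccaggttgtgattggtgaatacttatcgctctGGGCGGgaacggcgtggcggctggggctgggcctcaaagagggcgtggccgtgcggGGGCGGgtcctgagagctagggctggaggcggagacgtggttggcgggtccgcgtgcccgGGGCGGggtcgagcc
Cyp27a1 (chr1:74713285-74713534, plus strand): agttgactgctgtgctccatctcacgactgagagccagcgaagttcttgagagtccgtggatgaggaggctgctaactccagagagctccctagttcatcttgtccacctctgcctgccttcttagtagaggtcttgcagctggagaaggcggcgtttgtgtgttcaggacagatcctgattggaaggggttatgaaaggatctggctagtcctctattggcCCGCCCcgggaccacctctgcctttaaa
Ch25h (chr19:34475149-34475398, minus strand): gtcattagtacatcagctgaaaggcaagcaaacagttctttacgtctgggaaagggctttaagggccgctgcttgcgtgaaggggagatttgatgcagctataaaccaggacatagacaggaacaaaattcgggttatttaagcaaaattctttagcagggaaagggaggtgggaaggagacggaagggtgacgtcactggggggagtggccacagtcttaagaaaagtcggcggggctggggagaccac
The Cyp46a1 window held 4 copies of GGGCGG and 23 CpG dinucleotides, and its GC content of 67.6% was above that of 87.1% of the 32851 promoter windows in the table. Cyp27a1 held 1 copy and Ch25h none, with 7 and 8 CpG dinucleotides. On either strand, GGGCGG was found in 32.7% of all windows of this length. TATAAA, searched in the same way and present in 12.4% of all windows, was found in that of Ch25h only among these 3. A match describes the letters of the window and was not compared with any binding data.

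The 6 genes differed widely in level. Per kilobase of annotated exon, which allows genes to be compared, Cyp46a1 and Cyp39a1 were the most abundant in WT brain at E12.5 (5.10 ± 1.04 and 5.86 ± 0.307 CPM per kb, SD, n = 4). Cyp27a1, Cyp7b1 and Ch25h followed at 1.26 ± 0.268, 1.18 ± 0.477 and 0.703 ± 0.388 CPM per kb. At birth Cyp46a1 stood at 10.6 ± 0.710 CPM per kb, Cyp7b1 at 2.54 ± 0.532, Cyp39a1 at 1.79 ± 0.134, Cyp27a1 at 0.314 ± 0.0707 and Ch25h at 0.178 ± 0.136. Hsd3b7 was close to 0 throughout and is described last. With the longest transcript (2118 bases) in place of all annotated exons (3287 bases), Cyp46a1 was 16.4 CPM per kb at birth.

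**Figure D1:**
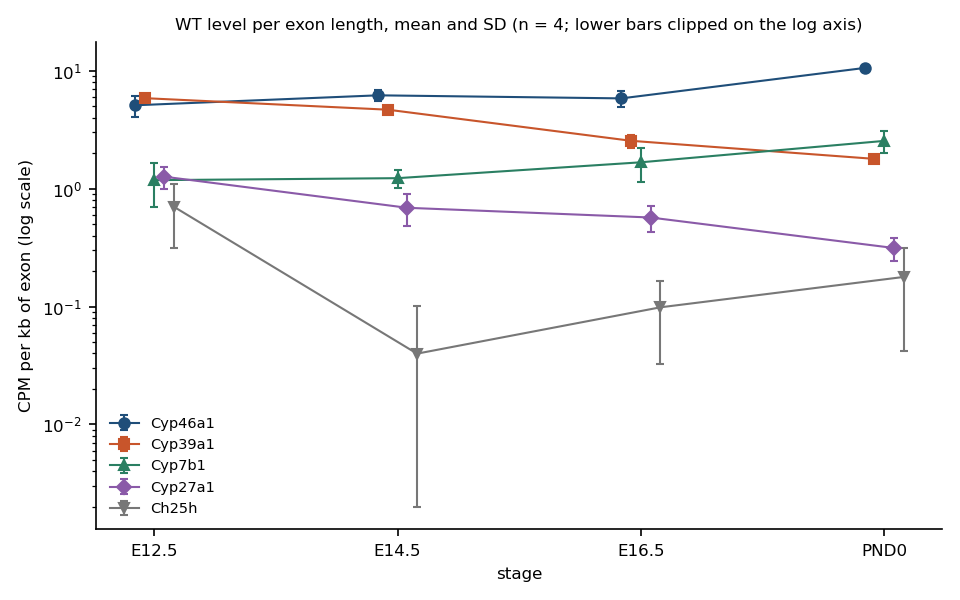
WT level of 5 genes at the 4 stages in CPM per kb of exon on a log axis; symbols are means of 4 libraries and bars are the SD, clipped at the bottom of the log axis for Ch25h at E14.5. Cyp46a1 and Cyp7b1 end higher than they began, and Cyp39a1, Cyp27a1 and Ch25h end lower.

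In WT brain from E12.5 to birth, all 5 genes that could be tested differed between the first and last stage: 2 rose (Cyp46a1 and Cyp7b1) and 3 fell (Cyp27a1, Ch25h and Cyp39a1). Over the same interval 70.9% of all genes tested passed the adjusted threshold of 0.05, with 34.5% higher and 36.4% lower at birth, so a change by itself was the usual behaviour of a gene. From E12.5 to E14.5, 3 of 5 members passed (57.8% of all genes), from E14.5 to E16.5 it was 1 of 4 (57.5%) and from E16.5 to birth 3 of 4 (53.2%). Over longer steps 2 of 4 passed from E12.5 to E16.5 (59.2%) and 4 of 4 from E14.5 to birth (60.8%). WT libraries of different stages often did not overlap: 54.3% and 55% of all genes kept E14.5 or E16.5 apart from E12.5, and 52.5% kept E14.5 apart from E16.5. Birth was apart from E12.5, E14.5 and E16.5 for 67.2%, 57.1% and 48.1% of genes. In these whole-brain samples fewer cells of a type and less RNA per cell cannot be told apart. Libraries of each stage were also deposited apart from those of other stages. A batch of preparation or sequencing that followed stage could not be told from stage itself. The part of such a batch in these changes was not tested.

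Cyp46a1 (ENSMUSG00000021259.5, GRCm38 chr12:108334381-108362234, plus strand) encodes cholesterol 24-hydroxylase. Its WT libraries read 11.8, 18.3, 17.3 and 19.6 CPM (E12.5), 19.2, 20.2, 23.3 and 18.8 CPM (E14.5), and 23.2, 19.1, 17.04 and 17.4 CPM (E16.5). At birth they read 37.3, 35.6, 34.5 and 31.8. The 4 newborn libraries lay above every embryonic one, and the 3 embryonic stages overlapped.

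Cyp46a1 rose by a log2 fold change of 0.83 (95% interval 0.59 to 1.07, adjusted p = 2.77e-05) from E16.5 to birth, and by 1.08 (0.76 to 1.40, adjusted p = 4.98e-05) from E12.5. Between neighbours in the order of levels below birth there was no call, with 0.22 from E12.5 to E16.5 (adjusted p = 0.282) and -0.07 from E14.5 to E16.5 (adjusted p = 0.618). The summed level of the 7 neuronal markers went from a WT mean of 3347 ± 820 CPM at E12.5 to 5843 ± 340 at E16.5 and 5925 ± 341 at birth (SD). Cyp46a1 was at 19.2 ± 2.83 CPM at E16.5 and 34.8 ± 2.34 at birth. Over that last step the WT mean of the summed astrocyte markers went from 249 to 447 CPM, and that of the oligodendrocyte lineage markers from 134 to 214. The part of these cell types in the rise of Cyp46a1 was not tested.

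In KO brain Cyp46a1 read 15.3, 22.4, 24.8 and 17.5 CPM (E12.5), 19.7, 17.2, 16.47 and 21.8 CPM (E14.5), and 21.2, 20.4, 24.6 and 19.7 CPM (E16.5). At birth the KO libraries read 43.7, 44.8, 48.1 and 37.1. All 4 newborn KO values exceeded the WT mean and 3 of 4 exceeded the highest WT value, while replicate 4 lay just under it. The difference at birth was 0.31 on the log2 scale (95% interval 0.09 to 0.54) and did not pass adjustment over all genes (adjusted p = 0.130). At the embryonic stages it was 0.23 (-0.19 to 0.66), -0.11 (-0.29 to 0.07) and 0.15 (-0.09 to 0.39), with adjusted p of 0.891, 0.786 and 0.633. At E12.5 the summed neuronal markers ran from 3283 to 4322 CPM in KO and from 2355 to 4265 CPM in WT. The part of neurons in the Cyp46a1 values was not tested.

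Cyp27a1 (ENSMUSG00000026170.6, GRCm38 chr1:74713574-74737892, plus strand) encodes the mitochondrial sterol 27-hydroxylase, which acts on the end of the side chain in many tissues. Its WT libraries read 3.50, 2.50, 2.13 and 2.87 CPM (E12.5) and 1.21, 1.88, 1.88 and 1.02 CPM (E14.5). They read 1.10, 1.35, 1.61 and 0.893 CPM (E16.5) and 0.792, 0.824, 0.615 and 0.498 CPM (birth). All E12.5 values exceeded all later ones, and all newborn values lay below all embryonic ones.

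From E12.5 to birth Cyp27a1 fell by 1.98 on the log2 scale (95% interval -2.61 to -1.35, adjusted p = 9.49e-05). It fell by 0.90 from E12.5 to E14.5 (adjusted p = 0.0121), differed by -0.25 from E14.5 to E16.5 (adjusted p = 0.478), and fell by 0.89 from E16.5 to birth (adjusted p = 0.041). The call for the last step was lost without filtering (adjusted p = 0.107), with DESeq2 (0.0975) and without any of WT replicates 1, 2 or 3 at E16.5 or 3 or 4 at PND0 (0.0632, 0.0979, 0.149, 0.0805 and 0.0927). From E14.5 to birth it fell by 1.11 (adjusted p = 0.0136), a call lost without E14.5 WT replicate 2 or 3 (adjusted p = 0.0518 and 0.0502).

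At birth Cyp27a1 had the largest log2 difference between genotypes among the 4 genes tested there. Its KO libraries read 1.79, 1.93, 0.792 and 1.19 CPM, on 36, 30, 14 and 20 counts, against 10 to 14 counts in WT. The KO mean was 1.43 CPM and the WT mean 0.682, and 3 of 4 KO libraries exceeded all WT libraries. The difference was 1.06 on the log2 scale (95% interval 0.17 to 1.94) and did not pass adjustment (adjusted p = 0.191). In a model of all 32 libraries the same difference had an adjusted p of 0.0459. That model called 1205 of 19541 genes at birth, against 250 of 17420 in the main fit.

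Several summed marker lists at birth are given beside Cyp27a1 and Cyp46a1, without a test between genotypes. Summed red blood cell markers (5 of 5 listed genes detected) ran from 220 to 2168 CPM in KO and from 190 to 251 CPM in WT, and KO replicate 3 held the highest sum. Summed choroid plexus markers were 601 to 986 CPM in KO and 325 to 610 CPM in WT, and oligodendrocyte lineage markers 167 to 198 and 206 to 224 CPM. Meningeal fibroblast markers were 402 to 507 CPM in KO and 371 to 432 CPM in WT, and neural progenitor markers 463 to 615 and 425 to 487 CPM. Without KO replicate 3 the difference was 1.26 for Cyp27a1 (adjusted p = 0.154) and 0.26 for Cyp46a1 (adjusted p = 0.237). That library was the lowest of KO for Cyp27a1 and the highest for Cyp46a1, so leaving it out moves both KO means by construction. KO replicates 1, 2 and 4 held 534, 220 and 607 CPM of red blood cell markers. The part of the cells behind these marker lists in the levels of Cyp27a1 and Cyp46a1 was not tested.

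In KO embryos Cyp27a1 read 3.27, 1.68, 1.99 and 2.73 CPM (E12.5), 1.13, 1.75, 0.876 and 1.14 CPM (E14.5), and 0.929, 1.24, 1.75 and 1.47 CPM (E16.5). These values overlapped those of WT at each stage. The log2 differences were -0.21 (-0.79 to 0.38), -0.27 (-0.88 to 0.35) and 0.10 (-0.49 to 0.68), and none passed (adjusted p = 0.923, 0.869 and 0.926).

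Ch25h (ENSMUSG00000050370.5, GRCm38 chr19:34473778-34475164, minus strand, 1 exon) encodes cholesterol 25-hydroxylase, an enzyme outside the P450 family that macrophages induce in response to interferon. Of its 1387 exon bases 159 are shared with the antisense gene Gm26902, and the counting was not stated to use strand. Over all 32 libraries it had 180 counts. In WT the libraries held 12, 29, 10 and 23 counts (E12.5), 4, 0, 0 and 1 counts (E14.5), 0, 3, 3 and 3 counts (E16.5), and 0, 5, 4 and 9 counts (birth). The E12.5 libraries all lay above the floor of 3 counts and above every later library, of which 4 of 12 did.

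Summed over a group, WT Ch25h was 0.978 CPM at E12.5 (95% Poisson interval of the counts 0.768 to 1.23) and 0.0519 CPM at E14.5 (0.0169 to 0.121). From E12.5 to E14.5 it fell by 4.09 on the log2 scale (95% interval -5.75 to -2.43, adjusted p = 0.00106), a size that rests on 5 counts at E14.5. From E12.5 to birth it fell by 1.90 (-3.31 to -0.48, adjusted p = 0.0206), a call lost without E12.5 replicate 2 (log2 fold change -1.45, adjusted p = 0.0792) or PND0 replicate 3 (-1.84, adjusted p = 0.051). From E12.5 to E16.5 Ch25h was under the filter on low counts and had no test. Without the filter its log2 fold change over that step was -2.74 (adjusted p = 0.000378), with DESeq2 it was -2.80 (0.000382), and in 1 fit of all 16 WT libraries it was -2.75 (0.0042). The 3 pairs of later stages were under the filter too.

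In KO brain Ch25h had 11, 3, 4 and 15 counts at E12.5, or 0.836, 0.201, 0.241 and 0.909 CPM, against 0.723, 1.77, 0.575 and 0.836 CPM in WT. Replicates 2 and 3 lay below all WT libraries and the other KO libraries lay among them. The log2 difference was -0.84 (-2.07 to 0.39, adjusted p = 0.875). At the later stages KO held 10, 13 and 18 counts per group against 5, 9 and 18 in WT. Exact permutation tests (two-sided, 7 such tests with those of Hsd3b7) gave p = 0.4, 0.514 and 1 for these stages, each 1 after adjustment. Since 4 against 4 libraries allow no p below 0.0286, no single one of these 7 tests could have passed adjustment by itself. In fits without a filter its adjusted p was 0.831, 0.850 and 0.9996.

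The same 2 KO libraries were the lowest of the E12.5 set in markers of meningeal fibroblasts (Col1a1, Col1a2, Dcn, Lum and Foxc1, all 5 detected). The summed markers were 434 and 463 CPM in KO replicates 2 and 3, 1558 and 2002 CPM in KO replicates 1 and 4, and 968 to 2115 CPM in WT. After E12.5 the WT sums lay between 310 and 452 CPM, so the fall of Ch25h and Cyp27a1 from E12.5 to E14.5 also went with a fall of these markers. KO replicates 2 and 3 were also the lowest of the 8 libraries in the summed markers of microglia and macrophages (49.7 and 50.2 against 66.4 to 85.7 CPM), of endothelium (120 and 129 against 136 to 164 CPM) and of the oligodendrocyte lineage (96.1 and 101 against 115 to 303 CPM). In the last of these lists Pdgfra alone gave 211 of 303 CPM in WT replicate 1 and 78.4 of 146 CPM in WT replicate 2. The part of the cells behind these 4 marker lists in the levels of Ch25h and Cyp27a1 was not tested. With KO replicates 2 and 3 left out at E12.5, the KO difference was -0.15 for Ch25h, 0.12 for Cyp27a1, 0.32 for Cyp7b1 and -0.04 for Cyp46a1, none of which passed. As these were the 2 lowest libraries for Ch25h and Cyp27a1, leaving them out raises the KO mean of both genes by construction. KO replicates 2 and 3 were also the 2 lowest KO libraries for Cyp7b1 and the 2 highest of all 8 libraries for Cyp46a1. Leaving them out thus raises the KO mean of Cyp7b1 and lowers that of Cyp46a1 by construction too.

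**Figure D2:**
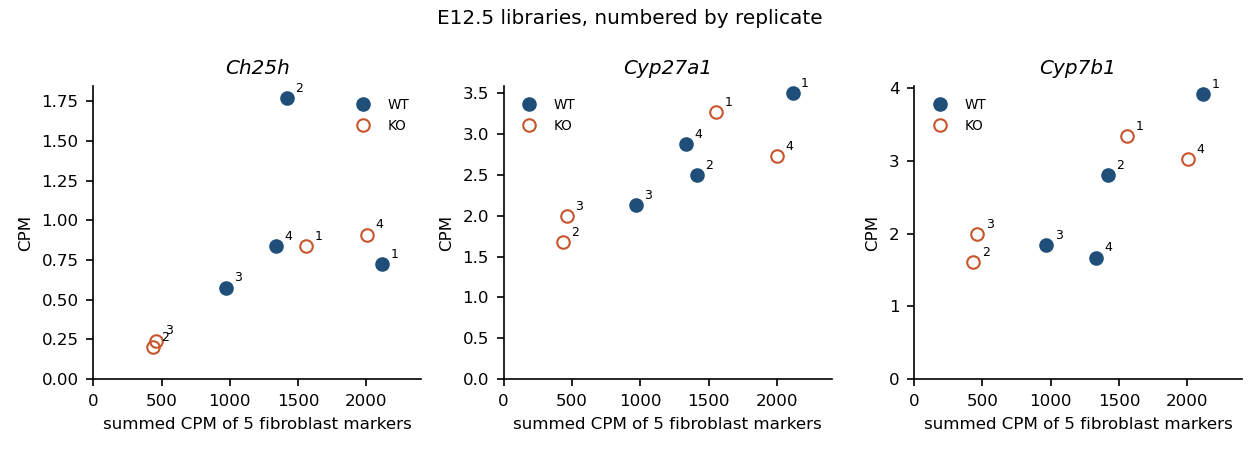
Level of Ch25h, Cyp27a1 and Cyp7b1 (CPM) against the summed CPM of 5 meningeal fibroblast markers in the 8 libraries at E12.5, numbered by replicate. KO replicates 2 and 3 lie at the left, at 434 and 463 CPM of markers, and are the lowest libraries for Ch25h and Cyp27a1; for Cyp7b1, WT replicates 3 and 4 (1.84 and 1.67 CPM) lie between them.

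Cyp7b1 (ENSMUSG00000039519.6, GRCm38 chr3:18071950-18243338, minus strand) encodes the oxysterol hydroxylase that adds a ring hydroxyl to the products of Cyp27a1 and Ch25h. In WT it read 3.92, 2.80, 1.84 and 1.67 CPM (E12.5), 3.08, 2.41, 3.03 and 2.12 CPM (E14.5), 3.29, 2.57, 3.35 and 5.29 CPM (E16.5), and 6.79, 4.44, 4.64 and 6.17 CPM (birth). Newborn libraries overlapped those of E16.5 and lay above all E12.5 and E14.5 libraries.

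Cyp7b1 rose by 1.15 from E12.5 to birth (95% interval 0.49 to 1.80, adjusted p = 0.00504) and by 1.09 from E14.5 to birth (adjusted p = 0.000285). Neighbours in its order of levels did not pass: 0.04 from E12.5 to E14.5 (adjusted p = 0.914), 0.47 from E14.5 to E16.5 (0.0851) and 0.58 from E16.5 to birth (0.0532). The last of these passed with DESeq2's type of size factors (adjusted p = 0.0479), without filtering (0.0432) and without E16.5 replicate 4 (0.0117), PND0 replicate 2 (0.0412) or PND0 replicate 3 (0.0428). The step from E14.5 to E16.5 passed without E16.5 replicate 2 (0.0271), and E12.5 to E16.5 passed without E12.5 replicate 1 (0.0323).

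In KO brain Cyp7b1 at E16.5 read 2.30, 1.59, 2.99 and 2.15 CPM, with 3 of 4 libraries below every WT library. The difference was -0.69 on the log2 scale (95% interval -1.22 to -0.16) and did not pass adjustment (adjusted p = 0.335). WT replicate 4, at 5.29 CPM, was the highest library, and without it the difference was -0.45 (adjusted p = 0.696). At the other stages KO libraries read 3.34, 1.61, 1.99 and 3.03 CPM (E12.5), 2.30, 2.74, 2.34 and 3.07 CPM (E14.5), and 5.61, 5.85, 4.70 and 5.90 CPM (birth). The log2 differences there were -0.05 (-0.83 to 0.73), -0.02 (-0.43 to 0.40) and -0.01 (-0.45 to 0.43), with adjusted p of 0.987, 0.993 and 0.989.

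Cyp39a1 (ENSMUSG00000023963.10, GRCm38 chr17:43667425-43751431, plus strand) encodes the corresponding enzyme for the product of Cyp46a1. In WT it read 17.3, 18.8, 16.9 and 18.6 CPM (E12.5), 15.4, 15.2, 13.5 and 13.1 CPM (E14.5), 7.03, 7.54, 7.29 and 9.25 CPM (E16.5), and 5.15, 5.83, 5.81 and 5.08 CPM (birth). No 2 stages overlapped, and the level fell at every step. The falls were 0.35 (adjusted p = 0.0058), 0.86 (9.86e-06) and 0.54 (0.00908) on the log2 scale, and Cyp39a1 fell by 1.68 from E12.5 to birth (95% interval -1.94 to -1.42, adjusted p = 4.42e-07).

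Per kb of all annotated exons, Cyp46a1 and Cyp39a1 thus started at like levels at E12.5. They ended apart, at 10.6 and 1.79 CPM per kb at birth. By the longest transcript they were less alike at E12.5, at 7.92 ± 1.62 and 5.86 ± 0.307 CPM per kb. Summed markers of neural progenitors (Sox2, Pax6, Nes, Hes1 and Vim, all 5 detected) fell over the same stages as Cyp39a1, from a WT mean of 1947 CPM at E12.5 to 461 CPM at birth. Their part in the fall of Cyp39a1 was not tested.

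In KO brain Cyp39a1 read 23.0, 17.4, 19.98 and 18.9 CPM (E12.5), 14.8, 14.6, 14.2 and 15.8 CPM (E14.5), 5.68, 7.33, 6.24 and 6.79 CPM (E16.5), and 5.66, 5.15, 5.49 and 5.42 CPM (birth). At E12.5, 3 of 4 KO libraries exceeded every WT library, and at E16.5, 3 of 4 lay below every WT library. The log2 differences were 0.13 (-0.12 to 0.38), 0.06 (-0.12 to 0.25), -0.27 (-0.56 to 0.01) and -0.02 (-0.40 to 0.37) in order of stage. None passed, with adjusted p of 0.899, 0.910, 0.453 and 0.979.

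Hsd3b7 (ENSMUSG00000042289.11, GRCm38 chr7:127800604-127803802, plus strand) encodes the dehydrogenase that acts after the ring hydroxylases in bile acid synthesis. It had 9 counts over all 32 libraries, 4 in WT and 5 in KO. These fell in 5 libraries: 3 in E14.5 KO replicate 2, 2 in E16.5 KO replicate 4, 1 in E16.5 WT replicate 1, and 2 and 1 in PND0 WT replicates 1 and 4. No library exceeded its floor of 3 counts, no level or fold is given, and exact permutation tests gave p = 1, 1, 1 and 0.429.

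The low count of Hsd3b7 cannot be read as absence of its transcript. In GENCODE M21, 1717 of its 2769 exon bases are shared with Gm49388 on the same strand and 99.2% with a gene on either strand, the other being the antisense 9430064I24Rik. Gm49388 had 0 counts in all 32 libraries, and 9430064I24Rik had 7 to 48 counts per library. Of the 169 protein-coding genes with at least 99% of exon bases shared on either strand, 72.2% had 0 counts, against 14.3% of the 15109 that share none. Reads that match several genes are left out by common counting settings, but the setting used is not given in the sources used here.

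**Figure D3:**
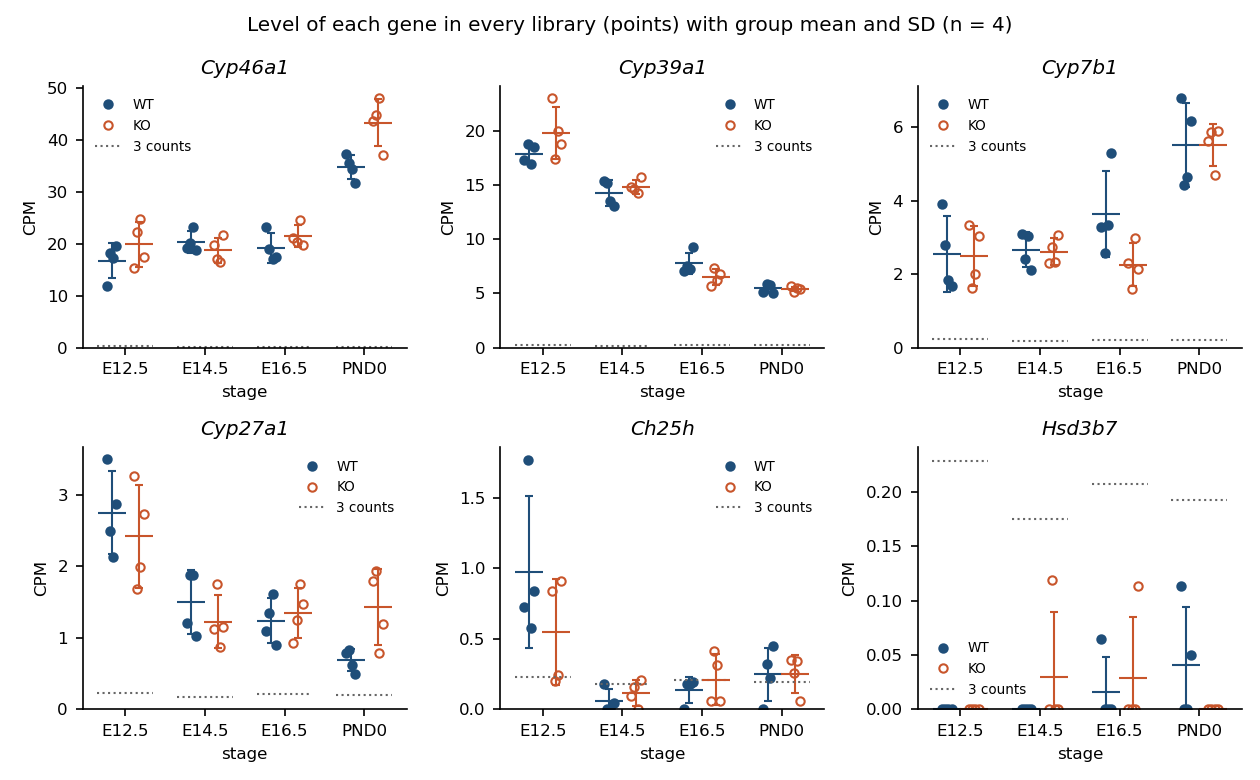
CPM of the 6 genes in every library by stage (filled blue, WT; open orange, KO), with group mean and SD (n = 4) and the highest 3-count floor of the stage as a dotted line; each panel has its own axis from 0. WT and KO points overlap for each gene at each stage, Ch25h is near the floor after E12.5, and Hsd3b7 never exceeds it.

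Set against WT, no member passed adjustment at any stage: 0 of 5 tested at E12.5 and 0 of 4 at E14.5, E16.5 and PND0 (edgeR). The background of genes called was low too, at 0.0177%, 0.527%, 0.0462% and 1.44% of all genes tested at the 4 stages, so no calls among so few genes is near what the whole table gave. Unadjusted p fell under 0.05 for 1 member at E16.5 (Cyp7b1) and 2 at PND0 (Cyp46a1 and Cyp27a1), as it did for 11.5% and 18.0% of all genes tested at these stages. DESeq2 called none either, but gave no adjusted p for any member at E16.5, for Cyp27a1 and Cyp7b1 at E14.5, for Cyp27a1 at PND0, for Ch25h at E14.5 and PND0, or for Hsd3b7 at any stage. WT and KO values overlapped, or were all 0, for each gene at each stage, where 2.63%, 4.87%, 6.19% and 11.8% of all genes did not overlap.

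The width of the intervals sets what these data could show. For Cyp46a1 and Cyp39a1, the most highly counted members, the intervals reached no further than 0.66 on the log2 scale at any stage. For Cyp27a1 and Cyp7b1 they reached 1.94 and -1.22, and for Ch25h at E12.5 -2.07. Whether the KO difference itself changed with stage was tested in a model of all 32 libraries, in which 0.0256% of genes passed. None of the 5 members tested did: the smallest adjusted p was that of Cyp27a1 (0.297), and the other adjusted p were 0.528 for Cyp46a1, 0.571 for Cyp7b1, 0.733 for Ch25h and 0.390 for Cyp39a1. DESeq2 called none in this test either.

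**Figure D4:**
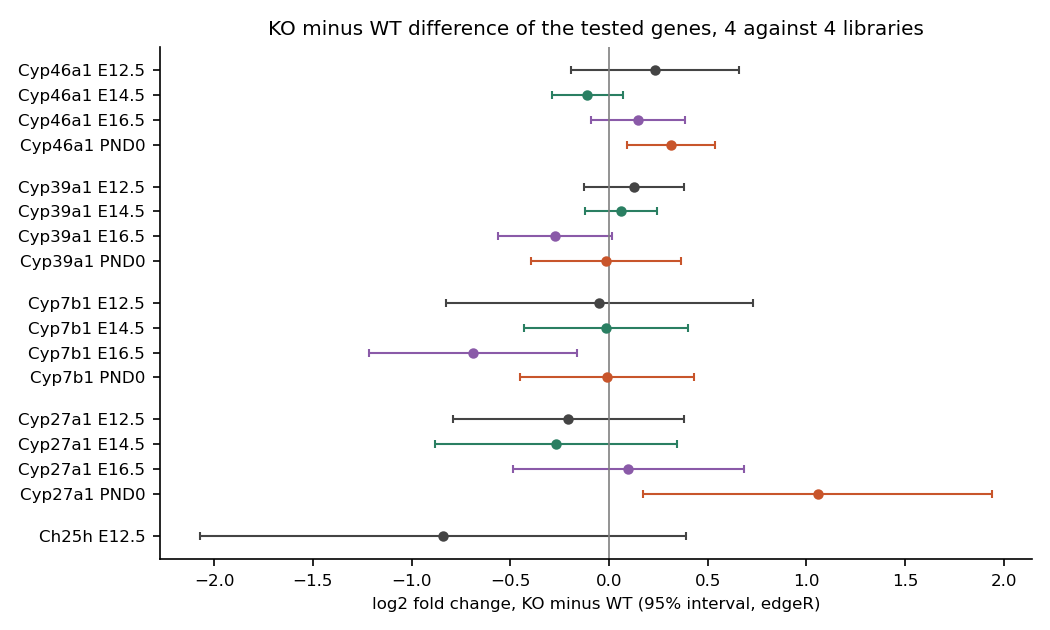
KO minus WT difference (log2 fold change) with its 95% interval from edgeR for each gene and stage that could be tested, 4 against 4 libraries. The intervals of Cyp46a1 and Cyp27a1 at PND0 and of Cyp7b1 at E16.5 lie to one side of 0, and none of these passed adjustment over all genes.

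A set of 4 lists placed the members among the genes around them: other bile acid synthesis genes, electron donors of P450 enzymes, sensors of oxysterols and bile acids, and other sterol conversion genes. The enzymes of the classical liver route had few counts. Cyp7a1, which starts that route, had 3 counts over all 32 libraries, Cyp8b1 45 and Akr1d1 18. The peroxisomal genes of side chain shortening, which also serve fatty acids, were abundant: in WT at birth Hsd17b4 stood at 68.6 CPM, Scp2 at 52.9 and Abcd3 at 98.8.

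From E12.5 to birth in WT, 3 of 8 bile acid genes tested (14 listed) rose and 2 fell. Among them Akr1c14, a hydroxysteroid dehydrogenase, rose by 1.80 (adjusted p = 0.00237), Abcd3, a peroxisomal transporter, rose by 0.52 (5.73e-05), and Hsd17b4 fell by 0.55 (2.14e-05). Of 5 electron donors tested 4 fell and none rose, among them Cyb5a by 0.68, Cyb5r3 by 0.66 and Fdx1, the ferredoxin that supplies mitochondrial P450 enzymes such as Cyp27a1, by 0.41. The medians of these lists were 0.23 and -0.41 against -0.05 over all genes tested, of which 34.5% rose and 36.4% fell.

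Of 5 other sterol conversion genes tested (8 listed) 3 rose and 1 fell over the same interval, with a median of 0.92. Sult2b1, which sulfates cholesterol and oxysterols, rose by 2.02 (adjusted p = 2.05e-05), from 4.47 to 17.9 CPM. Cyp11a1, which cleaves the side chain to make pregnenolone, rose by 4.10 (3.55e-05), from 0.0749 to 1.57 CPM. Its E12.5 mean lay below the floor of those libraries (0.109 to 0.183 CPM), so the size of the rise rests on few counts. Hsd11b2, which inactivates glucocorticoids, fell by 2.60 (1.42e-07), from 14.0 to 2.26 CPM. Of 6 sensors tested (7 listed) 1 rose and 1 fell, with a median of 0.06. Nr1h2, the more widely expressed liver X receptor, fell by 0.94 (1.8e-05), and Insig2 rose by 0.23 (0.0446), a call lost in 6 of 8 fits with 1 library left out (adjusted p up to 0.138) and without filtering (0.247).

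Between KO and WT only Insig1 passed, among those of the 34 genes of these lists that could be tested. It passed at E14.5 (0.42, adjusted p = 2.68e-09) and at PND0 (0.61, adjusted p = 0.0201), where 0.527% and 1.44% of all genes tested did. It was also higher in KO at E12.5 (0.56, interval 0.37 to 0.76) and E16.5 (0.24, interval 0.09 to 0.39). These differences did not pass (adjusted p = 0.318 and 0.293), nor did the change of its KO difference with stage (adjusted p = 0.312). Insig1 encodes an endoplasmic reticulum protein that retains the sterol sensor Scap and is itself induced when sterols are low. At birth it read 88.1, 78.1, 105 and 69.7 CPM in WT and 125.3, 121, 148 and 128 CPM in KO. The groups did not overlap, as was so for 11.8% of all genes tested. The call at birth was lost without WT replicate 1 (adjusted p = 0.0594), without KO replicate 1 (0.063) and after correction for transcript length (0.0711), and that at E14.5 in a model of all 32 libraries (0.172).

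The other lists had no gene called in KO at any stage, of 6 to 8 bile acid genes, 4 to 6 sterol conversion genes and 5 electron donors tested. The nearest at birth was Fdxr, the reductase that feeds Fdx1, which read 18.9, 19.6, 12.8 and 22.6 CPM in WT and 27.3, 28.5, 27.5 and 22.9 CPM in KO. The KO libraries all lay above the WT libraries, at a stage where 11.8% of all genes did not overlap. The difference was 0.51 (95% interval 0.18 to 0.85, adjusted p = 0.107). It passed with DESeq2 (adjusted p = 0.0306), without filtering (0.0125) and in a model of all 32 libraries (0.0191). These settings called 921, 1091 and 1205 genes at birth, against 250 in the main fit. With each library left out in turn it never passed (adjusted p from 0.0699 to 0.271). Cyp11a1 differed by -1.10 at birth (-1.87 to -0.32, adjusted p = 0.127). List medians at birth were 0.23 for electron donors, 0.13 for sensors, 0.08 for sterol conversion and 0.02 for bile acid genes, against -0.00058 over all genes.

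**Figure D5:**
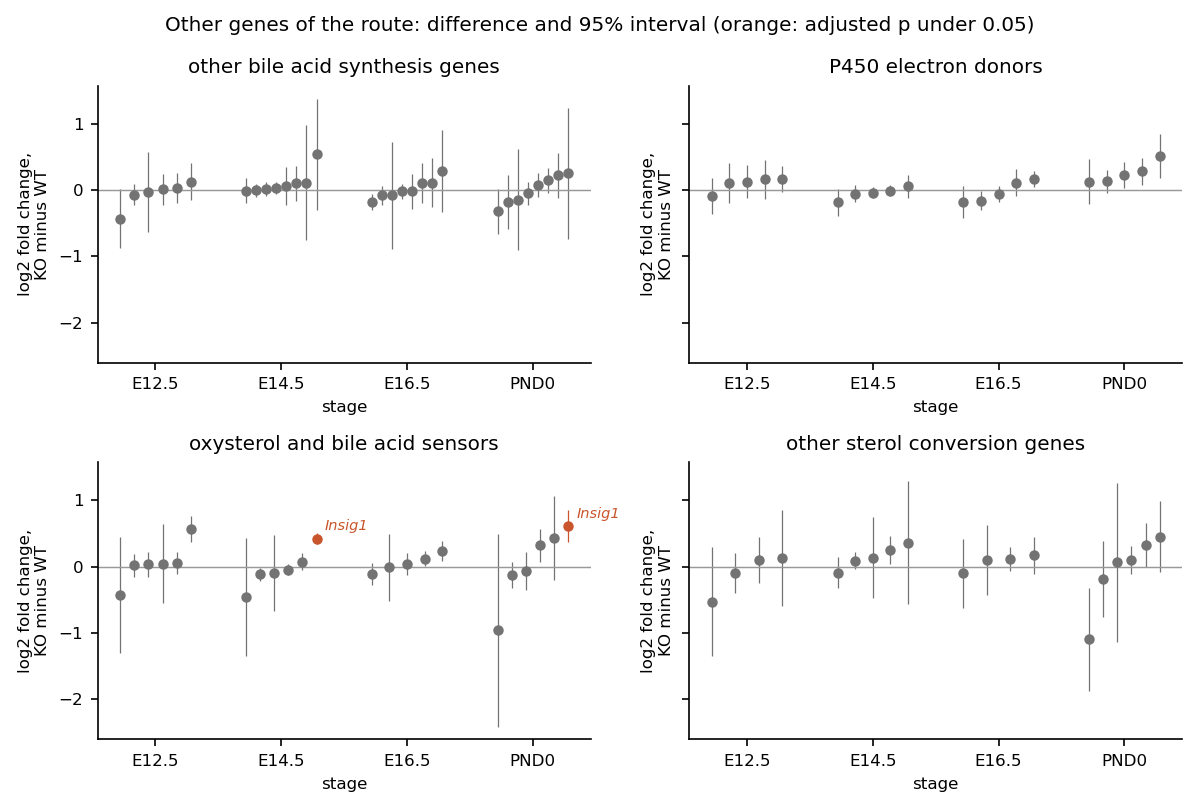
KO minus WT log2 fold change with its 95% interval for every gene of the 4 lists that could be tested, by stage and ordered by size within a stage. Orange marks the 2 values with an adjusted p under 0.05, both of Insig1, at E14.5 and PND0.

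The genes with the WT course most like that of each member were taken by the root mean square difference of centred log2 CPM over the 16 WT libraries, among 16106 genes at 1 CPM or more (16107 for Ch25h). For Cyp46a1 they were Cplx2 (0.14), Slc25a23 (0.15) and Rap2a (0.16), and for Cyp39a1 Zfp41 (0.14), Smarca5 (0.14) and Tmpo (0.14). Cplx2, for example, went from 191 ± 33.0 CPM at E12.5 to 415 ± 33.6 at birth. For Cyp27a1 they were Rexo5, Fam72a and Nasp (0.25 to 0.29), for Cyp7b1 C1qtnf1, Fbxo27 and Tnfrsf11b (0.28 to 0.30), and for Ch25h Actg2, Svep1 and St14 (0.69 to 0.73). The likeness was weakest for Ch25h, whose low counts spread widely between libraries. The WT means of Hsd3b7 spanned too little for such a comparison.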

How the data were processed

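RNA from 32 whole brains was enriched for polyadenylated transcripts and sequenced in pairs, per the labels' protocols. The authors deposited raw counts per gene symbol in 1 table per stage. The submitters' processing notes name HISAT2, SAMtools, featureCounts, DESeq2 and mm10; versions, annotation and strand setting are not given in the sources used here. Counts were tested with edgeR 4.0.16 in R 4.3.3 (quasi-likelihood F test, TMM, filterByExpr with a minimum count of 10 and total of 15, robust), 8 libraries per comparison, with Benjamini-Hochberg adjustment over all genes tested and a threshold of 0.05. Members under the filter had exact permutation tests of CPM (scipy 1.17.1). CPM used 1 TMM scale over all 32 libraries, and log2 CPM a prior count of 2. The fits were tested on simulated data with known changes between KO and WT. A log2 change of 1 was found in 67.7% (E12.5), 87% (E14.5), 89.9% (E16.5) and 73.5% (PND0) of the changed genes. In the test of change with stage it was found in 54.3%. All 48 pairs of libraries within groups differed by more than sampling noise (chi-square per degree of freedom 2.90 to 115).

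Alternatives were other size factors, no filter, DESeq2 1.42.0, each library left out, a replicate block, sex-linked genes as a covariate, 1 model of all libraries and, chosen after seeing the data, offsets for transcript length at PND0 and leaving out KO replicates 2 and 3 at E12.5. Members and lists were chosen with earlier results of these data known. Besides the members and Dhcr7, genes were named from each list by smallest p (at most 3 past the threshold, or else 1), and as the 3 nearest in course to each member; overlapping genes and the counts of the low liver-route enzymes were named after their values were seen, as were the other peroxisomal levels. Genome positions and exon lengths are from GENCODE M21 (GRCm38).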

Additional observations from a re-analysis of the deposited data

How the results depend on the processing

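Of 240 alternative values for members in KO against WT, 218 kept their direction and side of the threshold. Another 21 changed sign without a call and 1 became a call. For WT stage pairs 288 of 311 kept both. The test of change of the KO difference with stage has no direction, and 179 of 179 values kept their side of the threshold. No main fit of KO against WT, or of its change with stage, called a member. Keeping the side there means only that no call arose. Fits that gave no adjusted p were left out of these counts. The 1 new call was Cyp27a1 at PND0 in a model of all 32 libraries (1.06, adjusted p = 0.0459). There 1 of 5 members tested was called, as were 1205 of all 19541 genes, against 250 of 17420 in the main fit. With both KO replicates 2 and 3 left out at E12.5, differences were -0.039 for Cyp46a1, 0.12 for Cyp27a1 and 0.32 for Cyp7b1. For Cyp7b1 at PND0 the difference was 0.0056 with a replicate block and 0.014 with the sex-gene covariate. In WT from E16.5 to PND0, Cyp27a1 was -0.91 without filtering and -0.89 with DESeq2, neither past the threshold, and Cyp7b1 was 0.59 with RLE size factors and 0.56 without filtering, both past it. Where the cause of such a change is not given by fewer libraries, the cause was not tested. Low counts limit Ch25h after E12.5 and Hsd3b7 throughout.

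The number of genes past the threshold moved more. It was 3 at E12.5, and 30 with DESeq2, 6 with the replicate block, 52 in 1 model of all libraries and 0 without KO replicates 2 and 3 (290 at an unadjusted p under 0.05). It was 94 at E14.5, and 146 without filtering and 4 in 1 model of all libraries. It was 8 at E16.5, and 233 without filtering, 168 with DESeq2, 5 with the replicate block, 4 with the sex-gene covariate and 3 in 1 model of all libraries. It was 250 at PND0, and 1091 without filtering, 921 with DESeq2, 44 with length offsets and 1205 in 1 model of all libraries. For the change with stage it was 5, and 11 without filtering, 344 with DESeq2 and 0 with the replicate block.

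With each library left out in turn, genes past the threshold numbered between 1 and 5 (E12.5), 52 and 155 (E14.5), 3 and 14 (E16.5), and 35 and 263 (PND0), and between 0 and 797 for the change with stage. The KO difference of Cyp7b1 ran from -0.23 to 0.24 at E12.5, -0.11 to 0.063 at E14.5 and -0.11 to 0.11 at PND0, that of Cyp27a1 at E16.5 from -0.053 to 0.25, and that of Cyp39a1 at PND0 from -0.044 to 0.013. In WT, Cyp7b1 ran from -0.14 to 0.34 between E12.5 and E14.5, 0.30 to 0.82 between E12.5 and E16.5, 0.23 to 0.61 between E14.5 and E16.5 and 0.44 to 0.81 between E16.5 and PND0. Cyp27a1 ran from -1.26 to -0.97 between E14.5 and PND0 and -1.02 to -0.75 between E16.5 and PND0, Ch25h from -2.38 to -1.45 between E12.5 and PND0 (7 of 8 fits, since 1 left it under the filter), and Cyp46a1 from -0.18 to 0.0012 between E14.5 and E16.5. Between E14.5 and E16.5 in WT, 1 to 2 members were called.

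WT and KO libraries share replicate numbers in the labels, but of 16 same-number pairs 4 had deviations correlated above 0.1 (r from -0.27 to 0.38) and 4 WT libraries matched their own number best, so the numbers were not taken as pairs. The replicate block called no member at any stage.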
